A study of Rattus norvegicus with 24 samples.

Results

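Of the 26404 gene IDs counted in livers of female Sprague-Dawley rats, 221 were early risers: IDs whose mean level after 0.3 µg/kg TCDD was at least 2 times the mean after vehicle. TCDD is 2,3,7,8-tetrachlorodibenzo-p-dioxin. Members were thus chosen by measured levels, given as a library's counts scaled to 1000000 gene counts (CPM). The rule kept IDs with a vehicle mean from 1 to below 1000 CPM, which 11030 met. Of these, 279 reached the fold of 2, and in 223 all 3 libraries at 0.3 µg/kg also lay above all 3 vehicle libraries. The rule set aside 4 IDs by name, of which 2 met its conditions, which left 221.

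The series holds RNA sequencing of 24 liver libraries, 3 described as biological replicates in each of 8 groups. The groups received sesame oil alone (vehicle), TCDD at 0.01, 0.03 and 0.1 µg/kg, TCDD at 0.3 µg/kg, and TCDD at the higher doses of 1, 3 and 10 µg/kg. All were female Sprague-Dawley rats, an outbred stock, labelled with an age of 57 days, without saying at which time. They were gavaged every 4 days over 28 days, and livers were taken on day 28, so the values describe repeated dosing and no acute response. By its title the study concerned polyunsaturated fatty acids and eicosanoids in the liver.

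TCDD binds the aryl hydrocarbon receptor, a ligand-activated transcription factor held in the cytosol. The bound receptor moves to the nucleus, pairs with the receptor nuclear translocator ARNT and raises transcription of genes near its DNA response elements. In liver its best known targets encode enzymes that oxidise or conjugate foreign chemicals, cytochrome P450 enzymes of family 1 among them.

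The members are known here only by Ensembl gene ID. The reference gene table used here gave an Ensembl ID for 0 of its 47357 entries, so 0 of the 26404 IDs could be matched. Pathway lists, cell type markers, promoter sequences and the check of the liver label by its markers could therefore not be applied. By a naming rule only 4 members are given by ID, and the others are described by their values. CPM is not corrected for transcript length, so levels are compared between groups and not between members.

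Libraries held 11816273 to 15804887 gene counts, so 3 counts were worth 0.19 to 0.254 CPM. The share of a table taken by alignments that were not unique was 32.0% ± 2.85 at 10 µg/kg and 24.1% ± 0.797 in vehicle (SD, n = 3 each), and the means of the other 6 groups ran from 22.1% to 24.3%. That share moved with the highest dose, and its part in the results at 10 µg/kg was not tested. In bulk liver, fewer cells of a type and less RNA per cell cannot be told apart.

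The members were mostly of low abundance before treatment. Their vehicle means ran from 1.00 to 212 CPM with a median of 3.77 CPM. There were 133 members below 5 CPM in vehicle, 83 from 5 to below 50 CPM and 5 at 50 CPM or more. The values that chose them, 0.3 µg/kg against vehicle, gave ratios of 2.01 to 90.9 with a median of 2.32. Most ratios lay near the bound: 148 were below 2.5, 66 were from 2.5 to below 4, and 7 were 4 or more, with 1 of these above 10. The members nearest the bound averaged 7.09 CPM at 0.3 µg/kg against 3.53 CPM in vehicle, and 14.8 against 7.36 CPM. The nearest IDs outside it averaged 3.18 CPM at 0.3 µg/kg against 1.59 CPM in vehicle, and 25.7 against 12.9 CPM. In edgeR's quasi-likelihood test on all 24 libraries, 115 of the 221 were called higher at 0.3 µg/kg than in vehicle, beside 1.92% of all IDs tested. The rule used that contrast, so nothing is read from this count. Leaving out vehicle replicate 3 moved the number of IDs that meet the rule to 366.

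Across the dose series the members as a set stayed above vehicle at every dose, but did not climb in even steps. Median ratios to vehicle over the 221 were 1.54 at 0.01, 1.52 at 0.03, 2.10 at 0.1, 2.32 at 0.3, 1.92 at 1, 2.44 at 3 and 3.01 at 10 µg/kg. The other 10809 IDs in the same range of vehicle levels had medians between 0.961 and 1.08 at the 7 doses. Vehicle and 0.3 µg/kg libraries both chose the members, so all ratios to vehicle are descriptions without a test. Because the rule favours IDs low in these vehicle libraries, ratios above 1 at 0.01 and 0.03 µg/kg cannot be read as responses. The same selection tends to raise the ratios at every other dose. At least 2 times the vehicle mean was reached by 37 members at 0.01, 26 at 0.03, 126 at 0.1, 95 at 1, 160 at 3 and 177 at 10 µg/kg. At least 4 times was reached by 1 member at 0.01, 1 at 0.03, 9 at 0.1, 7 at 0.3, 13 at 1, 32 at 3 and 62 at 10 µg/kg. Of the other 10809 IDs, 5, 9, 9, 5, 12, 29 and 110 reached it in the same order.

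A similar picture held library by library when each library was set against the mean of the 6 libraries of 0.01 and 0.03 µg/kg. The member medians on the log2(CPM + 0.5) scale were -0.57, -0.73 and -0.32 in vehicle, -0.16, 0.23 and -0.08 at 0.01 µg/kg, and 0.30, -0.19 and -0.12 at 0.03 µg/kg. At 0.1 µg/kg they were 0.46, 0.47 and 0.43, at 0.3 µg/kg 0.69, 0.68 and 0.41, and for 1 µg/kg -0.02, 0.47 and 0.48. For 3 µg/kg they were 0.48, 0.60 and 0.77, while the libraries of 10 µg/kg gave 0.97, 0.93 and 0.84. All 3 libraries at 0.1, 3 and 10 µg/kg lay above all 6 libraries of the lowest doses, while 1 µg/kg overlapped them through its replicate 1.

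**Figure D1:**
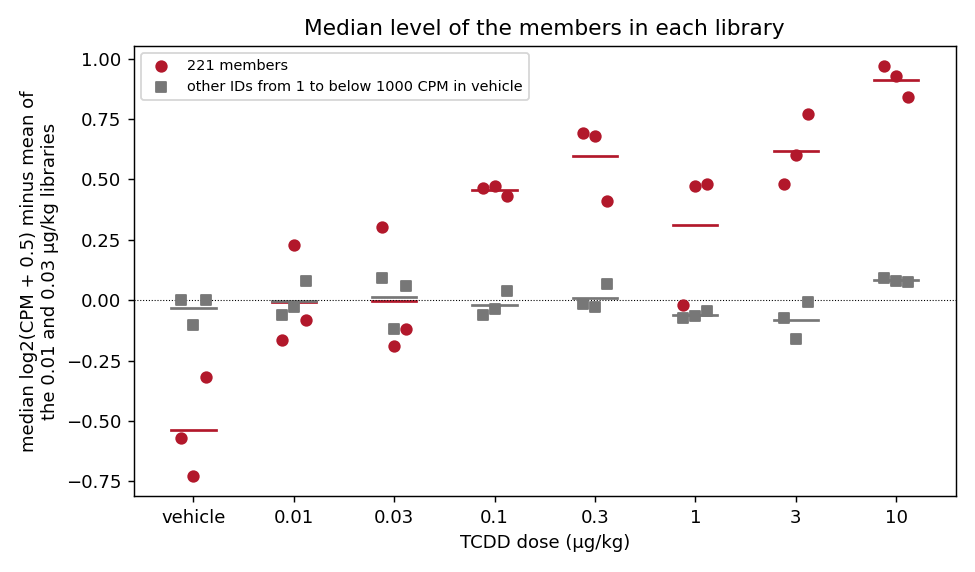
Median log2 level of the 221 members and of the other 10809 IDs in each of the 24 libraries, relative to the mean of the 0.01 and 0.03 µg/kg libraries, with dose groups from vehicle to 10 µg/kg along the horizontal axis. Member medians reach 0.84 to 0.97 at 10 µg/kg, and replicate 1 at 1 µg/kg stands at -0.02, below its group's other libraries.

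**Figure D2:**
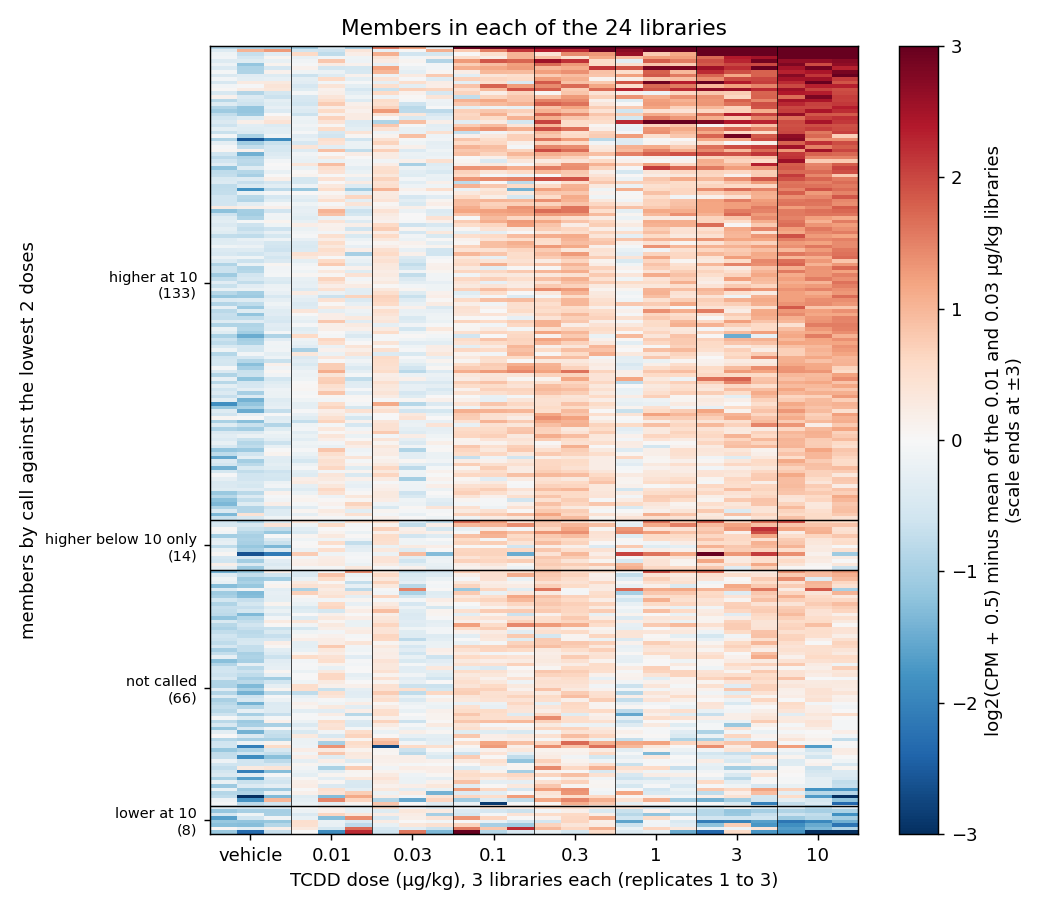
Level of every member (1 row each) in each of the 24 libraries, as log2(CPM + 0.5) minus the mean of the 0.01 and 0.03 µg/kg libraries (red above, blue below, colours end at 3 and -3), with libraries from vehicle to 10 µg/kg from left to right and members grouped by their call. The 133 rows of members called higher at 10 µg/kg are mostly red there, the 8 rows at the bottom are blue there, and replicate 1 at 1 µg/kg is paler than its neighbours.

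To ask whether the members also differed in rats that played no part in choosing them, doses were tested in the 18 libraries of the other 6 groups. The mean of 0.01 and 0.03 µg/kg served as the low-dose level, so a change here is one against that level and not against vehicle. The edgeR quasi-likelihood test was run on 12404 IDs, with Benjamini-Hochberg adjustment over all of them and calls at an adjusted p below 0.05. All 221 members passed its filter on low counts. Of them, 217 averaged at least 1 CPM in every group and 4 did not.

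At 0.1 µg/kg, a lower dose than the one that chose them, 5 of the 221 members (2.26%) were called higher than at the low doses, beside 0.0645% of all IDs tested. The median log2 fold change over members was 0.46, against -0.00029 over all IDs, and 192 members lay above 0 (86.9%, against 49.9% of all IDs). At an unadjusted p below 0.05, 97 members were higher, beside 4.49% of all IDs. The count of 5 rested on single libraries. It fell to 1 without 0.1 µg/kg replicate 1 or 3, and to 3 without 0.1 µg/kg replicate 2, 0.01 µg/kg replicate 1 or 0.03 µg/kg replicate 2. It was 20 without 0.01 µg/kg replicate 2. The calls over all IDs, 8 with every library, were 3, 2, 5, 6 and 8 in the same order, and 33 without 0.01 µg/kg replicate 2.

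At 1 µg/kg, 26 members (11.8%) were called higher, beside 1.56% of all IDs. The median log2 fold change was 0.39 and 184 members lay above 0 (83.3%). By edgeR 0 members were called lower, beside 0.419% of all IDs, with 2 at an unadjusted p below 0.05 (6.7% of all IDs) and 0 called by DESeq2. Among the 26, 17 were at least 2-fold and 6 at least 4-fold higher. Single libraries at this dose moved the count, which was 48 without replicate 1, 13 without replicate 2 and 12 without replicate 3. The calls over all IDs, 194 with every library, moved the same way and were 418 without replicate 1, 55 without replicate 2 and 75 without replicate 3. The member count was 15 without 0.01 µg/kg replicate 1 or 0.03 µg/kg replicate 3, and 17 without 0.03 µg/kg replicate 2. The calls over all IDs were then 100, 125 and 126.

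At 3 µg/kg, 98 members (44.3%) were called higher, beside 5.92% of all IDs, and 2 were called lower, beside 3.24%. The median log2 fold change was 0.71 over members, and 201 lay above 0 (91%). Of the 98, 61 were at least 2-fold, 16 at least 4-fold and 3 at least 8-fold higher. The count of 98 was 65 without 3 µg/kg replicate 2 and 58 without 3 µg/kg replicate 3. The calls over all IDs, 734 with every library, were then 452 and 440.

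At 10 µg/kg, 133 members (60.2%) were called higher, beside 16.2% of all IDs, and 8 (3.62%) were called lower, beside 14.5%. The median log2 fold change was 0.82 and 189 members lay above 0 (85.5%). Of the 133, 87 were at least 2-fold, 20 at least 4-fold and 4 at least 8-fold higher. Leaving out any 1 library kept the count of members higher at 10 µg/kg between 112 and 139. The calls over all IDs, 2008 with every library, ran from 1438 to 2001. The count of members lower, 8, was 5 without 10 µg/kg replicate 2 and 3 without 10 µg/kg replicate 3. Over all IDs the calls lower, 1803 with every library, were then 1199 and 1260.

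Separation of libraries was also more common in members than in all IDs. All 3 libraries lay above the 6 low-dose libraries in 42 members at 0.1 µg/kg (19%, against 2.02% of all IDs) and in 32 at 1 µg/kg (14.5%, against 3.17%). They did so in 86 members at 3 µg/kg (38.9%, against 5.64%) and in 128 at 10 µg/kg (57.9%, against 19.5%). At 10 µg/kg 121 of the 133 called members were separated in this way. By this measure 0.1 µg/kg stood above 1 µg/kg, whereas by calls it stood below. Separation depends on the lowest library of a dose, and replicate 1 at 1 µg/kg had a member median of -0.02. Its part in this order was not tested.

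**Figure D3:**
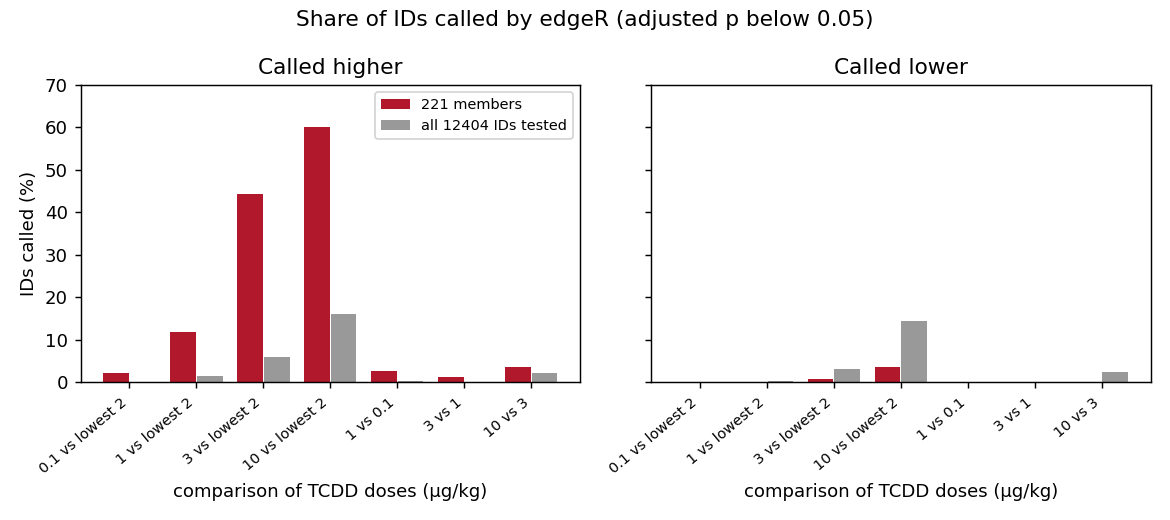
Percent of the 221 members (red bars) and of all 12404 IDs tested (grey bars) called higher (left) and lower (right) by edgeR at an adjusted p below 0.05, for 4 doses against the mean of the lowest 2 and for 3 steps between doses. Against the lowest doses the member share called higher is 2.26% at 0.1, 11.8% at 1, 44.3% at 3 and 60.2% at 10 µg/kg, and the share called lower at 10 µg/kg is 3.62%, against 14.5% of all IDs.

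The dose of first call spread over the whole range. The lowest dose with a call was 0.1 µg/kg for 5 members, 1 µg/kg for 21, 3 µg/kg for 73 and 10 µg/kg for 48. Calls over all IDs also grew with dose, with 8 at 0.1, 194 at 1, 734 at 3 and 2008 at 10 µg/kg. First calls were not counted over all IDs, so their spread is not read as particular to the members. The 5 members called at 0.1 µg/kg were called at all 4 doses. The other 74 members were never called higher: 8 were lower at 10 µg/kg and 66 were not called at any of the 4 doses. A further grouping by outcome at 10 µg/kg gave 133 members higher there and 14 called higher only at a lower dose.

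The median profile of the 133 members higher at 10 µg/kg was 1.47 times vehicle at 0.01, 1.47 at 0.03, 2.07 at 0.1, 2.39 at 0.3, 2.07 at 1, 2.75 at 3 and 3.88 at 10 µg/kg. The 14 members called only at a lower dose had medians of 1.53, 1.52, 2.37, 2.30, 2.19, 2.57 and 2.34 over the same doses, so their medians at 0.1 and 10 µg/kg were close. The 66 members not called had medians of 1.67, 1.63, 2.06, 2.19, 1.73, 2.03 and 2.05. The 8 members lower at 10 µg/kg stood at 2.23, 2.14, 2.16 and 2.34 up to 0.3 µg/kg, then 1.58 at 1, 1.06 at 3 and 0.603 at the top dose. These groups were formed from the calls, so their profiles are descriptions without a test. By construction, a member already high at the lowest doses was less likely to be called higher and more likely to be called lower.

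**Figure D4:**
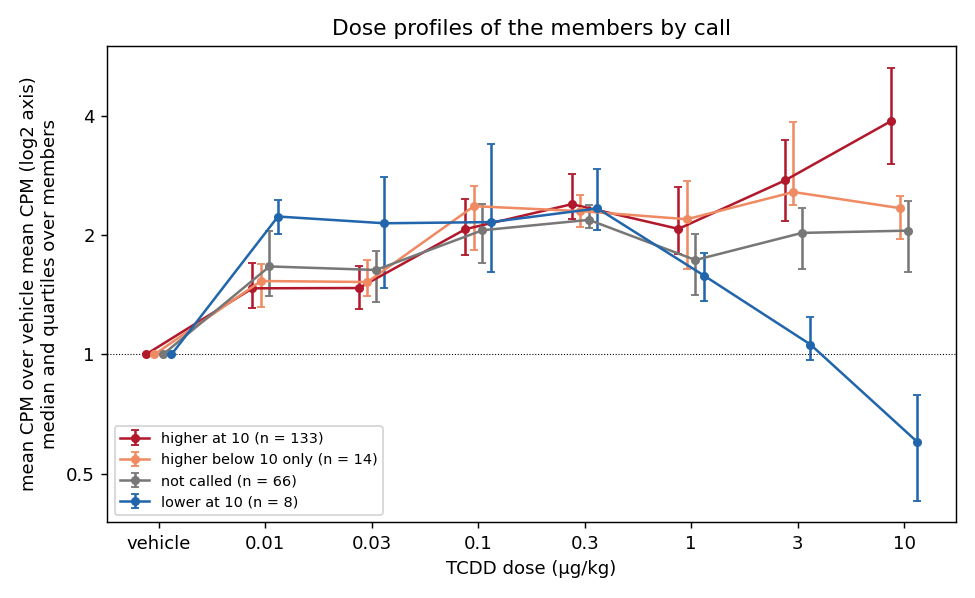
Median ratio of group mean to vehicle mean by dose for the members higher at 10 µg/kg (133), higher at a lower dose only (14), not called (66) and lower at 10 µg/kg (8), on a log scale; points are medians over members and bars span their quartiles. Medians lie between 2.19 and 2.39 at 0.3 µg/kg, a dose that chose the members, and at 10 µg/kg are 3.88 in the first set, 2.34 in the second, 2.05 in the third and 0.603 in the fourth.

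Steps between neighbouring doses were small for most members. Between 3 and 1 µg/kg, 3 members were called higher at 3 µg/kg, beside 0.161% of all IDs, with a median log2 fold change of 0.27 and 175 members above 0 (79.2%, against 50.7%). That count was 0 without 1 µg/kg replicate 2, 1 µg/kg replicate 3 or 3 µg/kg replicate 2, and 1 without 3 µg/kg replicate 3. The calls over all IDs, 20 with every library, were 5, 5, 7 and 12 in the same order. For the opposite direction edgeR called 0 members lower at 3 than at 1 µg/kg, beside 0.161% of all IDs, with 5 at an unadjusted p below 0.05 (4.92% of all IDs) and 1 called by DESeq2.

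Between 10 and 3 µg/kg, 8 members (3.62%) were called higher at 10 µg/kg, beside 2.33% of all IDs. The median log2 fold change was 0.07 and 127 members lay above 0 (57.5%, against 49.8%), a share close to that of all IDs. All 8 were also among the 133. The count was 3 without 3 µg/kg replicate 1 or 2, 4 without 3 µg/kg replicate 3, and 2 without 10 µg/kg replicate 2 or 3. Over all IDs the calls higher, 289 with every library, were 131, 161, 150, 103 and 109 in the same order. edgeR called 0 members lower at 10 than at 3 µg/kg, beside 2.43% of all IDs, with 12 at an unadjusted p below 0.05 (11.2% of all IDs) and 5 called by DESeq2. Without 10 µg/kg replicate 1 the edgeR count of members lower was 3, and without 3 µg/kg replicate 2 it was 1. Over all IDs the calls lower, 301 with every library, were then 446 and 127.

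Between 1 and 0.1 µg/kg, a comparison added after the values were seen, 6 members (2.71%) were called higher at 1 µg/kg, beside 0.266% of all IDs. The set as a whole lay slightly lower, with a median log2 fold change of -0.12 and 129 members below 0. Above 0 were 41.6% of members, against 48.5% of all IDs. edgeR called 0 members lower, beside 0.0161% of all IDs, with 12 at an unadjusted p below 0.05 (4.42% of all IDs) and 1 called by DESeq2. The lower median came with 1 library. The median ratio of the 1 to the 0.1 µg/kg mean was 0.902 with all libraries, with 132 members below 1, and 1.00 without 1 µg/kg replicate 1, with 110 below 1. The other IDs had medians of 0.963 with it and 0.964 without it. With all libraries 59.7% of members were below 1, close to the 58.2% of the other IDs. Without that replicate the shares were 49.8% and 56.5%.

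Among the 6 groups that did not choose the members, the highest mean was at 10 µg/kg in 137 members (62.0%, against 41.4% of the other IDs) and at 0.1 µg/kg in 36 (16.3%, against 10.6%). It was at 3 µg/kg in 26 members (11.8%, against 6.18%), at 1 µg/kg in 9 (4.07%, against 6.56%), at 0.03 µg/kg in 8 (3.62%, against 18.5%) and at 0.01 µg/kg in 5 (2.26%, against 16.7%). The lowest mean was at 0.01 µg/kg in 78 members (35.3%, against 13.1% of the other IDs) and at 0.03 µg/kg in 89 (40.3%, against 12.1%). Means that climbed at each step from 0.1 through 1 and 3 to 10 µg/kg were found in 43 members (19.5%, against 9.85% of the other IDs), so a steady climb was the pattern of a minority.

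The member with the largest rise was ENSRNOG00000047433, whose function the files do not give. It had 1.76, 1.55 and 1.52 CPM in vehicle livers, 1.55, 2.45 and 1.56 CPM at 0.01 µg/kg and 11.8, 8.82 and 2.92 CPM at 0.03 µg/kg. It had 44.2, 74.8 and 119.7 CPM at 0.1 µg/kg, 141.5, 182.5 and 115.5 CPM at 0.3 µg/kg and 507.03, 613 and 729 CPM at 1 µg/kg. At 3 µg/kg it had 1307, 1265 and 1329 CPM, and at 10 µg/kg 2624, 2036 and 1961 CPM. From 0.1 µg/kg on, no library overlapped the low-dose libraries, and 0.03 µg/kg stood above vehicle in every library. In edgeR's test against the low doses its log2 fold change was 4.38 at 0.1 µg/kg (SE 0.325, Benjamini-Hochberg adjusted p = 3.24e-06), and 7.38 at 1 µg/kg (SE 0.353, adjusted p = 1.51e-09). It was 8.47 at 3 µg/kg (SE 0.366, adjusted p = 2.2e-10) and 9.05 at 10 µg/kg (SE 0.373, adjusted p = 1.04e-10), by the same edgeR test. It was also called at the step from 0.1 to 1 µg/kg, with a log2 fold change of 3.00 (edgeR, adjusted p = 0.00104). The later steps were smaller and did not pass, with 1.09 between 3 and 1 µg/kg (edgeR, adjusted p = 0.299) and 0.58 between 10 and 3 µg/kg (edgeR, adjusted p = 0.373). The 3 vehicle libraries held 23, 21 and 18 counts of it.

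At 3 and 10 µg/kg this ID carried a sizeable part of the set's total, and at 0.1 and 0.3 µg/kg little of it. The summed level of all 221 members was 2189.6 ± 406 CPM in vehicle, 3630.2 ± 527 at 0.01, 3370.3 ± 505 at 0.03, 4891 ± 929 at 0.1, 5313 ± 792 at 0.3, 5389.9 ± 795 at 1, 7010.05 ± 271 at 3 and 8742 ± 641 CPM at 10 µg/kg (SD, n = 3 each). Without it the sum was 4811 ± 961 CPM at 0.1, 5167 ± 765 at 0.3, 4774 ± 712 at 1, 5709.7 ± 266 at 3 and 6534 ± 281 CPM at 10 µg/kg. Without this ID the sum at 1 µg/kg was thus below the sums at 0.1 and 0.3 µg/kg, and the libraries at these doses overlapped. The order of 0.1 and 1 µg/kg rested on another member, the one with the largest fall at 10 µg/kg. It averaged 663 CPM at 0.1 µg/kg, with 1722 CPM in replicate 1, against 137 CPM at 1 µg/kg.

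The second named member, ENSRNOG00000026110, rose by smaller steps and levelled off. It had 9.28, 4.95 and 10.5 CPM in vehicle, 13.2, 14.6 and 16.7 CPM at 0.01 µg/kg and 17.0, 12.4 and 12.1 CPM at 0.03 µg/kg. It had 27.1, 23.1 and 28.7 CPM at 0.1 µg/kg, 30.8, 29.8 and 26.8 CPM at 0.3 µg/kg and 41.7, 50.2 and 55.3 CPM at 1 µg/kg. It had 56.3, 54.5 and 65.1 CPM at 3 µg/kg and 64.0, 49.9 and 47.8 CPM at 10 µg/kg. All libraries from 0.1 µg/kg on were above the 6 low-dose libraries, and those at 1, 3 and 10 µg/kg overlapped one another. Its log2 fold change against the low doses was 0.90 at 0.1 µg/kg (SE 0.123, edgeR, adjusted p = 0.00625) and 1.80 at 10 µg/kg (SE 0.12, edgeR, adjusted p = 2.66e-08). It was 0.94 between 1 and 0.1 µg/kg (edgeR, adjusted p = 0.00526). The call at 0.1 µg/kg ended without 0.1 µg/kg replicate 1 (edgeR, adjusted p = 0.0594) or replicate 3 (adjusted p = 0.0662), with log2 fold changes of 0.84 to 0.97 when any 1 library was left out.

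**Figure D5:**
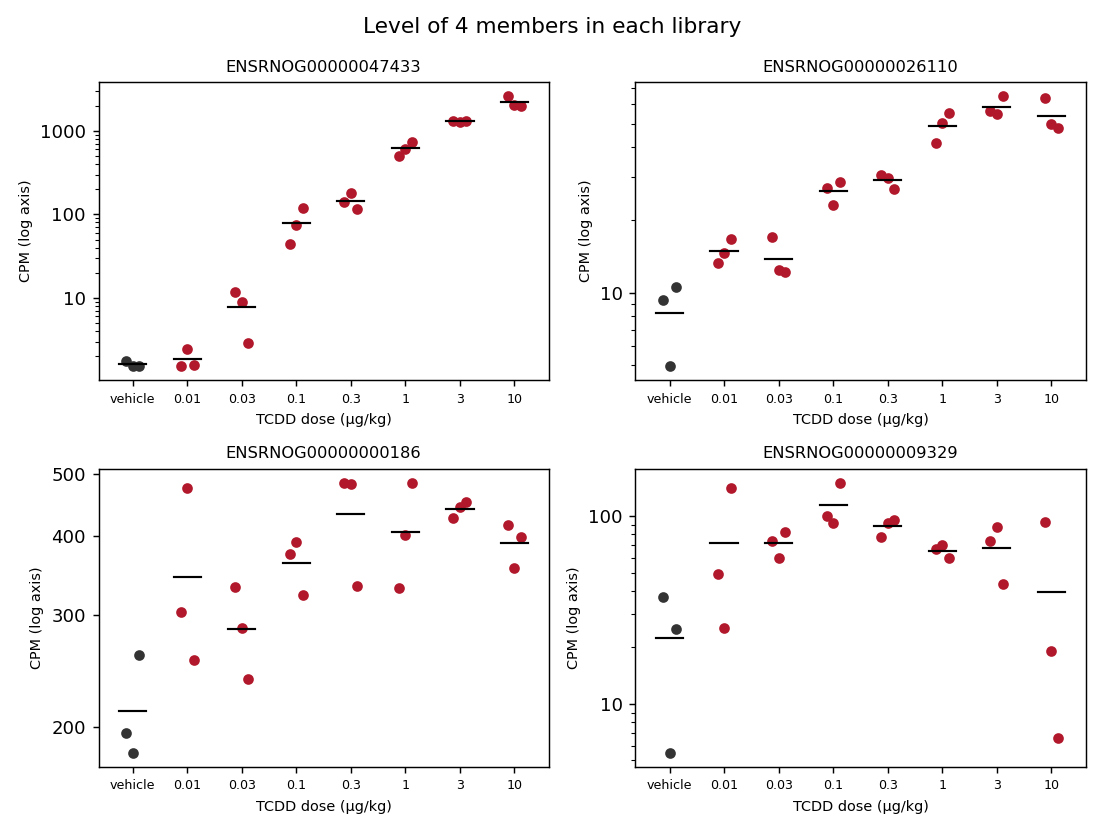
Level of the 4 named members in each of the 24 libraries by dose group, in CPM on a log scale, with a horizontal line at each group's mean, vehicle libraries in black and TCDD libraries in red. ENSRNOG00000047433 averages 2207 CPM at 10 µg/kg, against 1.61 CPM in vehicle, ENSRNOG00000026110 levels off from 1 µg/kg, and the libraries of ENSRNOG00000009329 spread widely at 10 µg/kg.

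The 5 further members are described without their ID and were chosen after their values were seen. The member with the lowest p at the step from 0.1 to 1 µg/kg, after the ID with the largest rise, averaged 21.6 CPM in vehicle, 19.9 at 0.01, 23.9 at 0.03, 17.8 at 0.1, 47.5 at 0.3, 160.7 at 1, 116 at 3 and 94.8 CPM at 10 µg/kg. Its libraries at 1 µg/kg had 96.5, 195 and 190.2 CPM, against 15.8, 24.2 and 13.5 CPM at 0.1 µg/kg, without overlap, with a log2 fold change of 3.20 (SE 0.433, edgeR, adjusted p = 0.00156). It was highest at 1 µg/kg, and its log2 fold change between 10 and 3 µg/kg was -0.48 (edgeR, adjusted p = 0.52).

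Other members were called at steps between the higher doses. The member with the lowest p between 10 and 3 µg/kg averaged 1.08 CPM in vehicle, 1.08 at 0.01, 1.45 at 0.03, 2.19 at 0.1, 2.69 at 0.3, 3.39 at 1, 7.69 at 3 and 31.3 CPM at 10 µg/kg. It had 29.7, 37.7 and 26.4 CPM at 10 µg/kg, against 5.15, 8.54 and 9.39 CPM at 3 µg/kg, with a log2 fold change of 1.84 (SE 0.227, edgeR, adjusted p = 0.00041). The member with the lowest p between 3 and 1 µg/kg, which was also among the 5 called at 0.1 µg/kg, had 6.98, 7.91 and 7.77 CPM at 3 µg/kg, against 2.42, 3.28 and 3.13 CPM at 1 µg/kg. The libraries did not overlap in either pair. Its log2 fold change was 1.37 (SE 0.23, edgeR, adjusted p = 0.0137), and the call ended without 1 µg/kg replicate 2 (adjusted p = 0.0708), without 1 µg/kg replicate 3 (adjusted p = 0.0804) or without 3 µg/kg replicate 2 (adjusted p = 0.0774).

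The 8 members lower at 10 µg/kg had been above vehicle at the low doses as a set, and fell below it at the top. A call lower against the low doses favours members high there, so their low-dose level is partly set by the grouping. The one with the lowest p had 0.582, 0.759 and 1.28 CPM at 10 µg/kg, against 6.34, 3.68, 3.04, 5.20, 4.38 and 4.04 CPM in the low-dose libraries, without overlap. It was 0.652, 0.705 and 1.05 CPM at 3 µg/kg, and 1.69, 1.63 and 1.69 CPM in vehicle. Its log2 fold change against the low doses was -2.45 at 10 µg/kg (SE 0.401, edgeR, adjusted p = 0.000249), and it was called lower at 3 µg/kg too. The largest fall, a log2 fold change of -3.99 (SE 1.35, edgeR, adjusted p = 0.0339), was in a member that varied widely within groups. It had 62.2, 8.67 and 2.09 CPM at 10 µg/kg, against 210.2, 57.7, 1005, 141, 638 and 82.7 CPM in the low-dose libraries, which overlapped. Leaving out single libraries put its log2 fold change between -6.15 and -3.23, and the call ended without 10 µg/kg replicate 2 (adjusted p = 0.122) or 3 (adjusted p = 0.111), 0.01 µg/kg replicate 3 (adjusted p = 0.0626) or 0.03 µg/kg replicate 2 (adjusted p = 0.0673).

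Of the members not called at 1, 3 or 10 µg/kg, the 2 with the highest mean levels were named. ENSRNOG00000000186 had group means of 212 CPM in vehicle, 345 at 0.01, 286 at 0.03, 363 at 0.1, 433 at 0.3, 406 at 1, 441 at 3 and 390.03 CPM at 10 µg/kg. Its libraries had 415, 356 and 399 CPM at 10 µg/kg, against 303, 476, 256, 333, 286 and 238 CPM in the low-dose libraries, which overlapped. The log2 fold change at 10 µg/kg was 0.19 (SE 0.182, edgeR, adjusted p = 0.456), and the nearest to a call was 0.56 at 3 µg/kg (edgeR, adjusted p = 0.0637).

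ENSRNOG00000009329 varied within groups at both ends of the range. It had 93.0, 19.0 and 6.61 CPM at 10 µg/kg, against 49.0, 25.4, 140.5, 73.9, 60.1 and 82.5 CPM in the low-dose libraries, which overlapped, and 37.0, 5.47 and 24.9 CPM in vehicle. Its groups between 0.1 and 3 µg/kg averaged 114, 88.0, 65.3 and 67.9 CPM. The log2 fold change at 10 µg/kg was -0.96 (SE 0.591, edgeR, adjusted p = 0.23). Without 10 µg/kg replicate 1 it was -2.58 (edgeR, adjusted p = 0.00279), so this library decides the call.

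Members also varied together within some groups. At 1 µg/kg, replicate 1 held 20.4% of members above their group mean, against 78.3% in replicate 2 and 69.2% in replicate 3. At 0.01 µg/kg, replicate 2 held 75.1%, and at 0.03 µg/kg replicate 1 held 80.1%. At 3 µg/kg, replicate 1 held 29.9%. The shift was smaller at 0.1 µg/kg, with 45.7% to 60.2%, and at 10 µg/kg, with 46.6% to 57%. Over all IDs tested every library held 49.2% to 52.2% above its group mean, a balance that the scaling of libraries sets. The median SD within groups on the log2 scale was 0.38 over members and 0.283 over all IDs. The first axis of the variation within groups held 26.8% of it for members and 22.4% for all IDs. The labels name no batch that these libraries could be set against.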

How the data were processed

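Per the labels' protocols, TRIzol was used to extract total liver RNA, and an Illumina TruSeq RNA kit to build libraries. The authors deposited whole-number counts per Ensembl gene ID, 1 table per library, not normalised. Per the submitters' processing notes reads were handled with TopHat 1.4.1, cutadapt 1.4.1 and FastQC 0.11.2, and with HTSeq 0.6.1, SAMtools 0.1.2 and DESeq, in an order not stated; genome build, annotation and strand setting are not given in the sources used here, so overlapping, antisense and near-identical genes are uncertain as single IDs. Summary rows that name no gene held 35.8% to 47.5% of a table and were kept out of CPM and tests.

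CPM and figures were computed in Python 3.11.15 and tests in R 4.3.3 with edgeR 4.0.16 (TMM scaling, filterByExpr, quasi-likelihood fit of 18 libraries with 6 group means, 12 residual degrees of freedom, 12404 IDs, Benjamini-Hochberg) and DESeq2 1.42.0 as an alternative. Fold changes are edgeR's fitted values, an SE is the fold change divided by the square root of its F statistic, and the biological coefficient of variation was 22%. The fit was tested on simulated data. Replicates are samples the series calls biological. The p-values weigh a difference between groups against the spread between samples within groups. That spread was estimated over all groups in the fit and drawn towards that of other IDs.

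The members and lists were chosen with earlier results of these data known. With no symbols, the naming rule gave 4 IDs: the largest called rise at 10 µg/kg whose libraries did not overlap the low-dose ones, the lowest adjusted p at 0.1 µg/kg not yet named, and, as no member was called lower at a step, the 2 most abundant members not called at 1, 3 or 10 µg/kg. The comparison of 1 with 0.1 µg/kg, the count of members lower at 10 µg/kg and the members described without an ID were added after the values were seen. Alternatives were other scaling, other low-count filters, DESeq2, a replicate block, other sets of libraries in the fit, leaving out each library, and other folds and TMM-scaled CPM in the member rule.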

Additional observations from a re-analysis of the deposited data

How the results depend on the processing

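The counts of members higher at 3 and 10 µg/kg and lower at 10 µg/kg stayed within 1.5 times their value under every alternative that kept all libraries compared. With DESeq2 the counts of members higher were 19 at 0.1 µg/kg, 45 at 1 µg/kg, 7 at 3 against 1, 14 at 10 against 3 and 12 at 1 against 0.1 µg/kg, and the counts lower were 1 at 3 against 1, 5 at 10 against 3 and 1 at 1 against 0.1 µg/kg. Over all IDs tested DESeq2 also called more, with 48, 348, 48, 458 and 139 higher and 69, 509 and 34 lower in the same order, against 8, 194, 20, 289 and 33 higher and 20, 301 and 2 lower by edgeR. With only the groups compared in the fit the members' counts were 1 at 0.1 µg/kg, 16 at 1 µg/kg, 0 at 3 against 1 and 2 at 1 against 0.1 µg/kg, and 1 member was lower at 10 than at 3 µg/kg. Over all IDs these counts were 1, 106, 6, 14 and 129 in the same order. The count of members lower at 10 than at 3 µg/kg was also 1 without the low-count filter and 1 with all 24 libraries, beside 249 and 354 over all IDs. The member rule found 678 IDs at a fold of 1.5 and 37 at a fold of 3. With TMM-scaled CPM it found 180 IDs, of which 179 were among the 221 members. The cause of these differences was not tested. The call of ENSRNOG00000026110 at 0.1 µg/kg ended with only the groups compared in the fit (edgeR, adjusted p = 0.098), and that of the member with the lowest p between 3 and 1 µg/kg ended there (adjusted p = 0.09) and with all 24 libraries (adjusted p = 0.0806).

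Leaving out each library gave 1 to 20 members higher at 0.1, 12 to 48 at 1, 58 to 112 at 3 and 112 to 139 at 10 µg/kg, and 3 to 9 lower at 10 µg/kg. Over all IDs the calls higher were 2 to 33, 55 to 418, 440 to 789 and 1438 to 2001, and 1199 to 1810 were lower at 10 µg/kg. For members it gave 0 to 2 higher and 0 to 1 lower at 3 than at 1, 2 to 7 higher and 0 to 3 lower at 10 than at 3, and 4 to 8 higher and 0 to 0 lower at 1 than at 0.1 µg/kg. The rule found 184 to 366 IDs without single libraries, and these held 161 to 203 of the 221 members. Named members' log2 fold changes were 8.84 to 9.20 for ENSRNOG00000047433 at 10 µg/kg, 0.077 to 0.35 for ENSRNOG00000000186 and -2.58 to -0.48 for ENSRNOG00000009329.

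Replicate numbers were not taken to pair the samples, because not every same-numbered pair of libraries correlated above 0.1 in deviations from group means. The 45 such pairs ran from -0.247 to 0.362 (median 0.0805, with 18 over 0.1), against a median of -0.0421 for pairs of other numbers. Deviations from a group mean cancel out within the group, so these 2 medians are tied to each other and are not separate evidence. Of 18 libraries, 10 were closest to their own number, which leans towards some sharing in the data. With the number as a replicate block, 3 members were higher at 0.1 µg/kg and 3 were lower at 10 than at 3 µg/kg, and the other counts stayed within 1.5 times. Over all IDs the block gave 6 higher at 0.1 µg/kg and 438 lower at 10 than at 3 µg/kg. With 11816273 gene counts in the shallowest library, members near 1 CPM rested on few counts.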
